A study of Mus musculus with 2 samples.

Results

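Sox9, Sox8, Wt1, Gata4, Gata1, Dhh, Clu and Trf are 8 genes known as regulators or secreted products of Sertoli cells. They were taken by gene identifier from the gene and transcript tables, 8 of the 43346 Ensembl genes listed, and together they have 40 listed transcripts. The RNA came from whole testis of male C57BL/6J mice aged 8 weeks, described as littermates, with no treatment and no second group. It was poly(A)-selected, depleted of ribosomal RNA and longer than 200 nucleotides, and was sequenced as stranded pairs of 76-nucleotide reads in 2 libraries, replicates 1 and 2. Both libraries carry the same donor identifier, so separate animals are not settled, and each SD measures only the spread between these samples. With 1 group there was no comparison of conditions and no p-value.

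Sertoli cells are the somatic cells that line the seminiferous tubules and hold, feed and signal to the germ cells. In the fetal gonad SOX9, with SOX8, WT1 and GATA4 around it, sets and keeps the Sertoli fate, and in the adult the same factors control genes for the blood-testis barrier and for secreted proteins. Their secreted products include the Hedgehog ligand DHH, which acts on Leydig and peritubular cells, and the carrier proteins clusterin and transferrin, which are delivered to germ cells. In bulk tissue, fewer cells of a type and less RNA per cell cannot be told apart.

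Expected counts, the reads estimated for each gene, summed to 50374324 in replicate 1 and 52788929 in replicate 2. Levels are given as TPM, transcripts per 1e6 transcripts, which corrects for transcript length and so can be compared between genes. A gene was called detected where its TPM reached 1 in each library. All 8 genes were detected, as were 62.1% of the 21474 protein-coding genes. Markers of other sources differed between the libraries. The summed TPM of 14 epididymis and duct markers was 686 in replicate 1 and 15.3 in replicate 2. Crisp1 alone, a secreted protein of the epididymis, was at 454 and 0.20, while Lcn10 and Ovch2 were at 0 in both libraries. The summed TPM of 10 peritubular and stromal markers was 351 and 179.8, that of 8 Leydig markers 4555 and 5659, and that of 8 germ cell markers 25008 and 22538. The Leydig sum was mostly Insl3, at 4187 and 5278. In the germ cell list only Prm1, at 17056 and 13121, was lower in replicate 2, and it set the direction of the sum.

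Levels of the 8 genes spanned more than 2 orders of magnitude, and a secreted product, not a regulator, was at the top. For Clu the TPM was 1193 in replicate 1 and 1524 in replicate 2, and it ranked 47 among protein-coding genes by mean TPM. Sox9 was the lowest of the 8 and ranked 9510. Between them, in falling order of mean TPM, stood Wt1, Trf, Gata1, Gata4, Dhh and Sox8. The values of the 2 libraries did not overlap between neighbours in this order, except that Trf overlapped Gata1 and Gata1 overlapped Gata4. Beyond neighbours, Trf also overlapped Gata4 and Dhh, and was below Dhh in replicate 2. The order of Trf, Gata1 and Gata4, and of Trf and Dhh, is therefore not resolved beyond their spread. A gene's TPM also depends on how its reads were divided among models of unlike length. Gata1 stood above Dhh in TPM but had fewer counts, 761 and 1036 against 990 and 1242. Its short incomplete model Gata1-202 held 35.4% and 32.5% of its TPM from 101 and 123 counts. How far the order rests on this division was not tested.

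**Figure D1:**
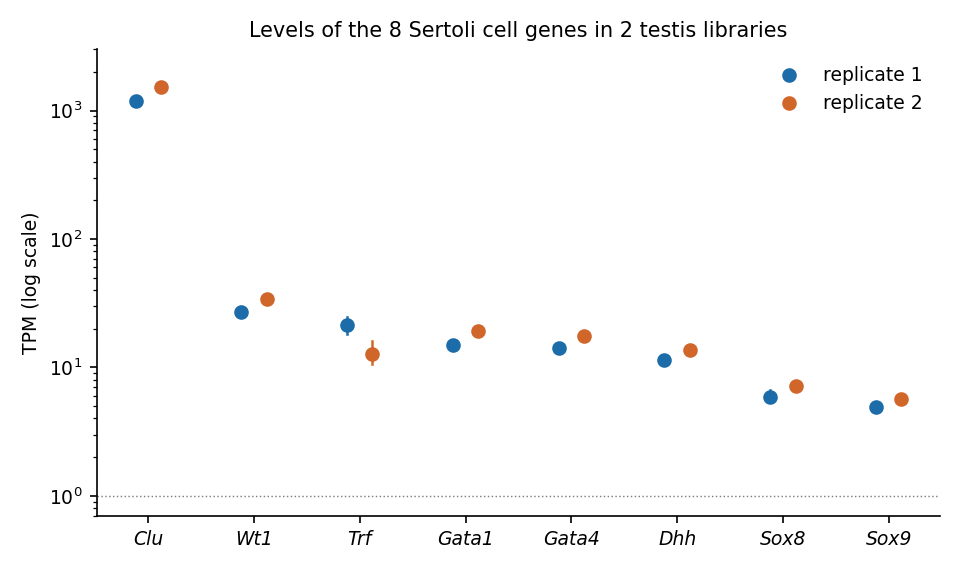
TPM of each of the 8 genes (log axis) in replicate 1 (blue) and replicate 2 (orange). Points are the deposited values, lines span the deposited interval on TPM where it is wider than the point, and the dotted line marks a TPM of 1. Clu stands apart at 1193 and 1524, and Trf is the one gene lower in replicate 2.

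Sox9 encodes the HMG-box transcription factor that directs Sertoli cell differentiation. Its gene lies on chromosome 11 of GRCm38 (112782224 to 112787760, plus strand). Sox9 had a TPM of 4.91 in replicate 1, from 780.0 counts, and of 5.72 in replicate 2, from 947 counts, a mean of 5.32 ± 0.57 (SD, n = 2). Its single listed transcript, Sox9-201, took all of it.

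Sox8 encodes the closest relative of SOX9 in the testis, also of the SOXE subgroup, and lies on chromosome 17 (25565892 to 25570686, minus strand). Its TPM was 5.92 in replicate 1, from 621 counts, and 7.10 in replicate 2, from 835 counts, a mean of 6.51 ± 0.83 (SD, n = 2). Sox8 was thus above Sox9 in each library, by 1.21-fold and 1.24-fold. The full-length model Sox8-201 held 92.0% and 100% of Sox8 TPM. The incomplete model Sox8-203 held the remaining 8.01% in replicate 1 from 5.56 counts. An antisense gene, 2810468N07Rik, shares 329 exonic bases with Sox8 and had a TPM of 4.99 and 6.25. The sources used here do not say whether counting used the strand, so reads of these genes may not be fully separated.

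Of 8 other SOX genes listed for the gonad, 6 were detected. The highest were Sox30, a germ cell factor, at 162 and 159.4, Sox5 at 126.7 and 105 and Sox6 at 27.9 and 29.1. These 3 were above Sox8 and Sox9 in both libraries. Sox10, the third SOXE gene, was at 1.35 and 1.33, so that Sox8 exceeded it 4.39-fold and 5.34-fold and Sox9 3.64-fold and 4.30-fold. Sry, which triggers Sox9 in the fetal gonad, was at 1.00 and 0.97, and Sox11, the lowest, at 0.18 in both.

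Wt1 encodes a zinc finger transcription factor needed for gonad formation and for keeping Sertoli cell identity, and lies on chromosome 2 (105126529 to 105173616, plus strand). It was the highest of the regulators, with a TPM of 27.0 in replicate 1 from 1725 counts and 34.0 in replicate 2 from 2302 counts, a mean of 30.5 ± 4.95 (SD, n = 2). Wt1 is also made by mesothelium, the cell layer that covers the testis. The 5 mesothelial markers summed to a TPM of 15.5 and 6.73, and 3 of them were detected. The difference in this sum was mostly that of Krt19, at 8.96 and 0.65, whereas Lrrn4 was at 3.84 and 3.36 and Upk3b at 1.16 and 1.15. The part of mesothelium in the Wt1 level was not tested.

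Wt1 is known for splice forms that change its DNA binding. A choice between donor sites 9 bases apart at the end of an exon adds or leaves out the amino acids lysine, threonine and serine (the +KTS and -KTS forms) between the last zinc fingers. The exon ends at chr2:105170009 in the short form and at chr2:105170018 in the long form. The coding sequences across this junction, from the RNA models of GENCODE M21 on GRCm38, plus strand, are shown because the models counted for each form differ at this site; capitals mark the 9 bases present only in the long form.
Wt1 long donor: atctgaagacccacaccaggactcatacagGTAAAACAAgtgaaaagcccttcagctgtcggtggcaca
Wt1 short donor: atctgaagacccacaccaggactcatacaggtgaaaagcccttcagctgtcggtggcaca

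Models with the short donor, Wt1-202 and Wt1-204, summed to a TPM of 15.97 (replicate 1) against 22.9 (replicate 2). The 4 models with the long donor, of which Wt1-205 was the highest, had 8.83 and 9.31. The short donor thus held 64.4% and 71.1% of the TPM of these 6 models. As a share of their expected counts, with no correction for length, it held 50.03% and 56.9%. Most of the short donor signal lay in 1 model, Wt1-204, which is incomplete at its start and has 1418 bases against 3090 in Wt1-205. Each share therefore mixes reads across the junction with reads from elsewhere in the models.

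A second alternative part of Wt1 is an exon of 51 bases (chr2:105144142-105144192), which is coding and adds 17 codons. It is shown with 20 bases on each side from Wt1-205, and capitals mark the exon.
Wt1 exon included: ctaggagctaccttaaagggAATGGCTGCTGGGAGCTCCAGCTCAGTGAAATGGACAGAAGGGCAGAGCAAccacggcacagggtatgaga

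The models that include the exon, Wt1-202 and Wt1-205, had a summed TPM of 6.38 and 9.18. The 4 models that skip it had 18.4 and 23.0, so that inclusion was at 25.7% in replicate 1 and 28.5% in replicate 2. As a share of expected counts, inclusion was at 44.1% and 47.8%, over 1.5 times the share by TPM. Skipping was the larger form by both measures in both libraries. In counts it had 916 against 721 in replicate 1 and 1154 against 1056 in replicate 2. Most of its TPM lay in Wt1-204 and most of the inclusion TPM in Wt1-205, the models that also led the donor forms. The exon shares are thus not a reading separate from the donor shares, and they too mix in reads from elsewhere in the models. By model, Wt1-204 led with 56.0% and 60.9% of Wt1 TPM. Wt1-205, with the longest coding sequence of the gene, followed at 20.5% and 20.7%. Wt1-203 held 8.95% and 6.01%, the retained-intron model Wt1-208 7.08% and 4.13%, and Wt1-202 3.14% and 6.30%.

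Of 9 genes listed as WT1 partners or regulators of the early gonad, 8 were detected. Nr5a1, the steroidogenic factor SF-1, was highest at 18.9 and 21.9. Nr0b1, which encodes DAX1, was at 12.2 and 18.1, and Cited2, a coactivator, at 13.7 and 13.6. All 3 were below Wt1 in both libraries. Lhx9, a factor of the early gonad, was lowest at 0.32 and 0.45. Emx2, named after its value was seen, was the one gene of this list past 1.5-fold lower in replicate 2, at 2.35 and 1.48.

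Gata4 encodes the zinc finger factor that acts with SF-1 and WT1 on Sertoli genes, and is also made in Leydig cells. It lies on chromosome 14 (63198922 to 63271692, minus strand). The TPM of Gata4 was 14.2 in replicate 1 from 1422 counts and 17.7 in replicate 2 from 1812 counts, a mean of 15.9 ± 2.47 (SD, n = 2). Its paralog Gata6, which is active in some of the same cells, was at 3.57 and 3.70, so that Gata4 was 3.97-fold and 4.77-fold higher.

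Gata4 TPM was divided among 4 transcript models, and which of them led depended on the measure and the library. Gata4-203, which begins at an internal first exon 31664 bases downstream of the start of Gata4-201, held 47.5% and 39.8% of TPM, the largest share. Its coding sequence has 708 bases, against 1326 in Gata4-201 and 1323 in Gata4-202. Gata4-202 held 29.1% and 33.5%, and Gata4-201 held 15.0% and 13.7%. Of expected counts, Gata4-203 held 42.1% and 36.0% and Gata4-202 held 37.1% and 43.6%, so that by counts Gata4-202 led in replicate 2. The deposited intervals on TPM of these models also overlapped in replicate 2, at 5.98 to 7.89 for Gata4-203 and 5.14 to 6.71 for Gata4-202. The incomplete model Gata4-204, which starts 26421 bases upstream of Gata4-201, held 8.39% and 12.9% from 21.6 and 42.9 counts.

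The 2 full-length models also differ by 3 coding bases at an acceptor site (chr14:63204756-63204758), where the long form keeps a TAG that the short form leaves out with the intron. The sequences are from GENCODE M21 on GRCm38, minus strand, with the 3 bases in capitals.
Gata4 long acceptor: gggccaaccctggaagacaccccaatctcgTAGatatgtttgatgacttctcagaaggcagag
Gata4 short acceptor: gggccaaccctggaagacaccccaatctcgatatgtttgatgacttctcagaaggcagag

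The TAG begins 1 base into a codon, so it adds 1 codon and is not read as a stop. Models with the short acceptor, Gata4-202 and Gata4-203, had a TPM of 10.85 and 12.96. The long acceptor, in Gata4-201, had 2.12 and 2.43. The short form therefore held 83.7% and 84.2% of the TPM of these models. Most of it came from Gata4-203, at 6.73 and 7.03, against 4.12 and 5.93 for the full-length Gata4-202. Since Gata4-203 has its own first exon, each share mixes reads across the junction with reads from elsewhere in the models. The closeness of the libraries in this share is thus not a measure of splicing alone.

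Gata1 encodes the founding GATA factor of red blood cell development, which in the testis is made by Sertoli cells. The gene lies on chromosome X (7959260 to 7978071, minus strand). Its TPM was 14.9 in replicate 1 from 761 counts and 19.1 in replicate 2 from 1036 counts, a mean of 17.0 ± 2.97 (SD, n = 2). Gata1 was 1.05-fold and 1.08-fold above Gata4, but the values of the 2 libraries overlap. Since Gata1 is a gene of erythroid and mast cells, 10 markers of those cells were read beside it. They summed to a TPM of 226 and 209, most of it from globin genes and Alas2, and 7 of 10 were detected. Hba-a2 was at 83.4 and 76.2, Alas2, a heme synthesis enzyme, at 24.6 and 25.2, and Kit, a receptor of mast cells and also of germ cells, at 6.44 and 9.77. Klf1, the erythroid factor, was at 0.43 and 0.30, and Cpa3, a mast cell protease, at 0.06 and 0.29. Markers of this list thus stood both above and below Gata1, and the part of these cells in the Gata1 level was not tested.

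Gata1 has been described with separate first exons in testis and in erythroid cells. In the deposited tables, Gata1-201 held 64.6% and 66.9% of TPM, from 660.0 and 912 counts. Gata1-202, which starts 10161 bases upstream and is incomplete at its end, held 35.4% and 32.5%, from 101 and 123 counts. The first exon of Gata1-202 lies at chrX:7978006-7978071 and that of Gata1-201 at chrX:7967767-7967910. Gata1-202 has a length of 676 bases against 1902 in Gata1-201, and both share the exon that holds the start codon. Reads from exons that the shorter model lacks can be given only to Gata1-201, whichever first exon they came with. Of the counts, as opposed to TPM, Gata1-201 held 86.7% and 88.1%.

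The promoter table of RefSeq (GRCm38.p6, 250 bases before to 50 after each start) held 3 of the 8 genes, Gata1, Dhh and Sox8. The window for Gata1, chrX:7967861-7968160 on the minus strand, is that of Gata1-201, so the upstream first exon lies outside it. It is shown because the transcript data divide between these starts.
Gata1 promoter: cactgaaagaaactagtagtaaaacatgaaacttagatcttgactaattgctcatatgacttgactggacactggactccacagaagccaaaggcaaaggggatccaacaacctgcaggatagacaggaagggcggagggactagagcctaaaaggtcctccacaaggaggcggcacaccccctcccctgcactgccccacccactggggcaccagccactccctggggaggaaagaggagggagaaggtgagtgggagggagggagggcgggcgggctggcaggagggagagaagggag

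The 3 windows were searched on both strands for words of the factors among the 8 genes. The GATA words were AGATAA, the same with G as its last letter, and both of these with T as the first letter; none of the 3 windows held one, against 29.8% of all 32851 promoters of this length. The SOX words were AACAAT and, for its longer variant, AACAAAG, held by 15.7% of promoters and by none of the 3. The WT1/EGR words were GCGGGGGCG and its variant GCGTGGGCG, held by 3.47% of promoters and by none of the 3. This says only that these letters are not in these windows.

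Among 6 other genes of the GATA and FOG families, 4 were detected. Zfpm1, which encodes the cofactor FOG1 of GATA1, was highest at 31.6 and 30.3, above Gata1 and Gata4 themselves. Gata2 was at 14.1 and 10.6 and Gata6 came after it. Gata1 was 1.05-fold above Gata2 in replicate 1 and 1.81-fold above it in replicate 2. Gata5 was lowest, at 0.09 in both libraries.

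**Figure D2:**
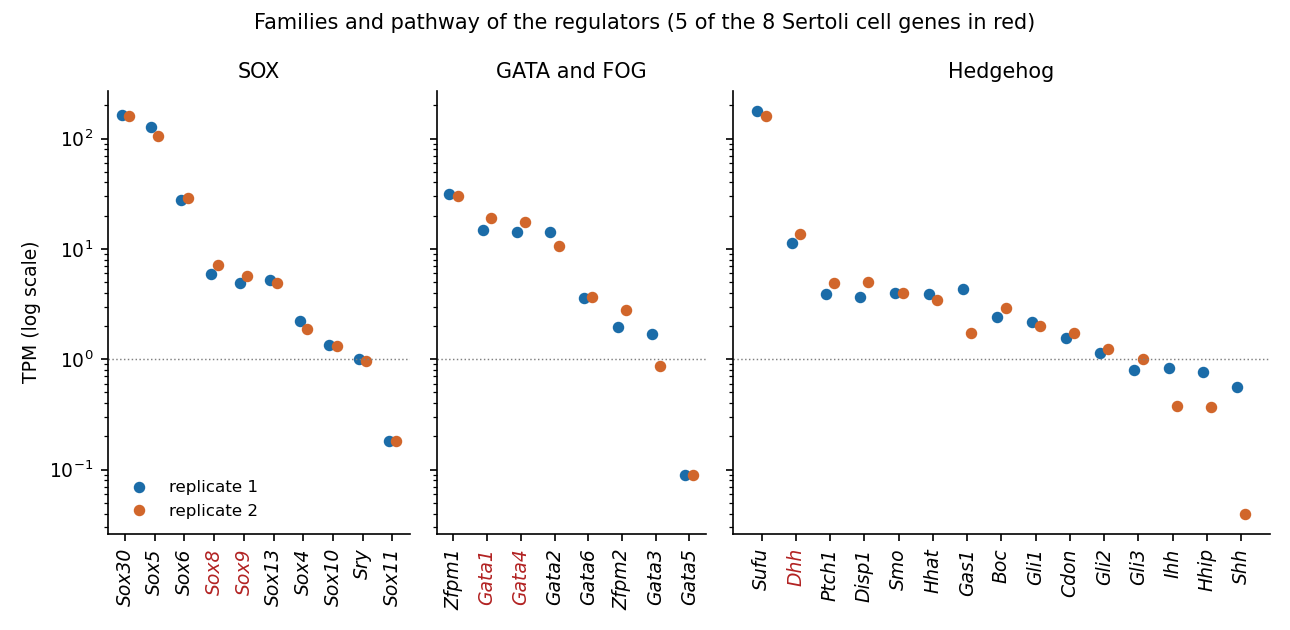
TPM (log axis) in replicate 1 (blue) and replicate 2 (orange) of the SOX genes, the GATA and FOG genes and the Hedgehog pathway genes reported here, each ordered by mean TPM, with Sox9, Sox8, Gata4, Gata1 and Dhh named in red and a dotted line at a TPM of 1. Sox8 and Sox9 stand below Sox30, Sox5 and Sox6, Gata1 and Gata4 stand below Zfpm1, and Dhh stands above Ihh and Shh.

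Dhh encodes desert hedgehog, the ligand through which Sertoli cells act on Leydig and peritubular cells. It lies on chromosome 15 (98891152 to 98898540, minus strand). Its TPM was 11.35 in replicate 1 from 990.0 counts and 13.7 in replicate 2 from 1242 counts, a mean of 12.5 ± 1.64 (SD, n = 2), all in the single listed transcript. Rhebl1, a gene on the same strand, shares 546 exonic bases with Dhh and had 144 and 139 counts, few beside those of Dhh. An antisense gene, Gm49442, shares 1107 exonic bases with Dhh in M21 and has no value here. Both overlaps rest on the M21 model of Dhh, of 4242 bases, while the model quantified had 2363, so the overlap in the quantified model is not known. Dhh was the main Hedgehog ligand in both libraries. Ihh was at 0.83 and 0.38, so that Dhh was 13.7-fold and 35.97-fold higher, and Shh was at 0.56 and 0.04, the latter from 4 counts. Dhh is also made by Schwann cells, whose 6 markers summed to a TPM of 26.1 and 31.9, 5 of them detected. The Schwann sum was higher in replicate 2, as Dhh was, and its part in the Dhh value was not tested.

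Of 15 other genes of the Hedgehog pathway, 11 were detected. Sufu, the inhibitor that holds GLI factors in the cytoplasm, was highest at 179 and 161. The receptor Ptch1, also a target of the pathway, was at 3.90 and 4.94, below Dhh in both libraries. Hhip, a decoy that binds the ligand, was at 0.76 and 0.37. Gas1, a coreceptor named after its value was seen, was the one detected gene of this list past 1.5-fold lower in replicate 2, at 4.33 and 1.73, the direction of the peritubular and stromal markers given above.

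Clu encodes clusterin, a secreted chaperone and lipid carrier and one of the main proteins that Sertoli cells release. The gene lies on chromosome 14 (65968483 to 65981547, plus strand). Its counts were 76981 in replicate 1 and 102247 in replicate 2, and its mean TPM was 1359 ± 233.8 (SD, n = 2). It took 0.157% and 0.199% of the counts of the listed Ensembl genes, a smaller total than the sums of expected counts given above. Clu was 44.2-fold and 44.8-fold above Wt1, close to the same ratio in both libraries. Of its 9 listed transcripts, Clu-201 held 98.8% and 98.7% of TPM and no other reached 1%. Clu is also known as a gene of the epididymis. The epididymis and duct markers were 686 in replicate 1 and 15.3 in replicate 2 in sum, with 3 of 14 detected. Detection asks for a TPM of 1 in each library, so markers high only in replicate 1 were not counted as detected. Crisp1, at 454 and 0.20, and Spink8, at 193.6 and 0.25, were such markers and made up most of the replicate 1 sum. The part of this tissue in the Clu value was not tested. Of 5 genes listed as clusterin receptors, 3 were detected. Lrp8 was at 79.3 and 75.8 and Lrp1 at 23.0 and 18.1. Vldlr was lowest at 0.47 and 0.25, and Lrp2, the megalin of absorbing epithelia, named after its value was seen, was at 2.08 and 0.28.

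Trf encodes transferrin, the iron carrier that Sertoli cells secrete toward germ cells. It lies on chromosome 9 (103204001 to 103230444, minus strand). Trf had a TPM of 21.2 in replicate 1, from 859 counts, and of 12.8 in replicate 2, from 703 counts, a mean of 17.0 ± 5.97 (SD, n = 2). It was the only one of the 8 genes that was lower in replicate 2, by 1.66-fold in TPM. Clu exceeded it 56.2-fold in replicate 1 and 119.0-fold in replicate 2.

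The value of Trf depends on how reads were divided. Gm20425, an annotated protein-coding gene on the same strand (chromosome 9, 103190208 to 103230307), shares 2108 exonic bases with Trf. Its counts were 296 in replicate 1 and 488 in replicate 2, the opposite direction to Trf. Gm20425 extends past the end of Trf, so some of its counts may come from exons outside Trf. Summed, the genes had 1155 and 1191 counts. The log2 ratio of replicate 2 over replicate 1 was -0.37 (95% interval -0.51 to -0.22) for Trf and -0.033 (-0.15 to 0.09) for the sum. In TPM the sum was 23.8 and 16.9, still 1.41-fold lower in replicate 2. The difference between libraries in Trf counts is therefore not separated here from the division of reads, and that in TPM remained in part. These intervals, and those below, cover counting error only.

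Trf TPM was divided among several transcript models, as that of Wt1 and Gata4 was. The full-length model Trf-201 stood at a TPM of 6.57 (replicate 1) against 6.01 (replicate 2). Trf-205, a model marked for nonsense-mediated decay, had 5.37 and 1.86, the incomplete model Trf-206 had 6.54 and 4.27, and the retained-intron model Trf-209 had 2.51 and 0.66. Most of the Trf difference in TPM thus lay in short models with few counts. Trf-205 had 93.7 and 33.6 counts, Trf-206 95.3 and 64.1, and Trf-209 23.5 and 6.25. As shares of TPM, Trf-201 held 30.9% and 47.0%, Trf-206 30.8% and 33.3%, Trf-205 25.3% and 14.6%, and Trf-209 11.8% and 5.12%. Of expected counts, Trf-201 held 73.1% and 85.2%. Protein-coding models together held 62.7% and 80.3% of Trf TPM.

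Trf was also read beside marker lists picked because their sums were lower in replicate 2, as Trf was. These were the epididymis and duct markers and the peritubular and stromal markers, with the sums given above. Of the 10 peritubular and stromal markers, 7 were lower by over 1.5-fold and none was higher. Lower sums were also found for the endothelial, macrophage, erythroid and mast cell, mesothelium and germ cell markers. The direction was thus shared with other lists, while the Leydig and Schwann sums were higher. The sizes were unlike. The sum in replicate 2 over replicate 1 was 0.02 for epididymis and duct and 0.51 for peritubular and stromal markers. It was 0.44 for mesothelium, mostly through Krt19, and 0.77 for endothelial markers. It was 0.92 for macrophage and for erythroid and mast cell markers, and 0.90 for germ cell markers, lower only through Prm1. The part of any of these cells in the Trf value was not tested. Liver makes most transferrin of the blood, and 6 liver and plasma markers summed to a TPM of 11.0 and 9.05, with 2 of 6 detected. These were Apoa2 at 7.36 and 6.94 and Serpina1a at 2.17 and 1.58, while Alb was at 0.19 and 0.06. The part of such RNA in the Trf value was not tested.

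Of 12 genes of iron transport and storage, 10 were detected. The ferritin chains Fth1 at 251.7 and 224.7 and Ftl1 at 167 and 131.7 were highest, followed by the iron importer Slc11a2 at 26.1 and 33.3. Tfrc, the receptor that takes up transferrin, was named after its value was seen, at 3.32 and 4.74. It was higher in replicate 2, where Trf was lower. Heph, a copper-dependent iron oxidase, was lowest at 0.30 and 0.37, and the iron exporter Slc40a1 was at 0.46 and 0.73.

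**Figure D3:**
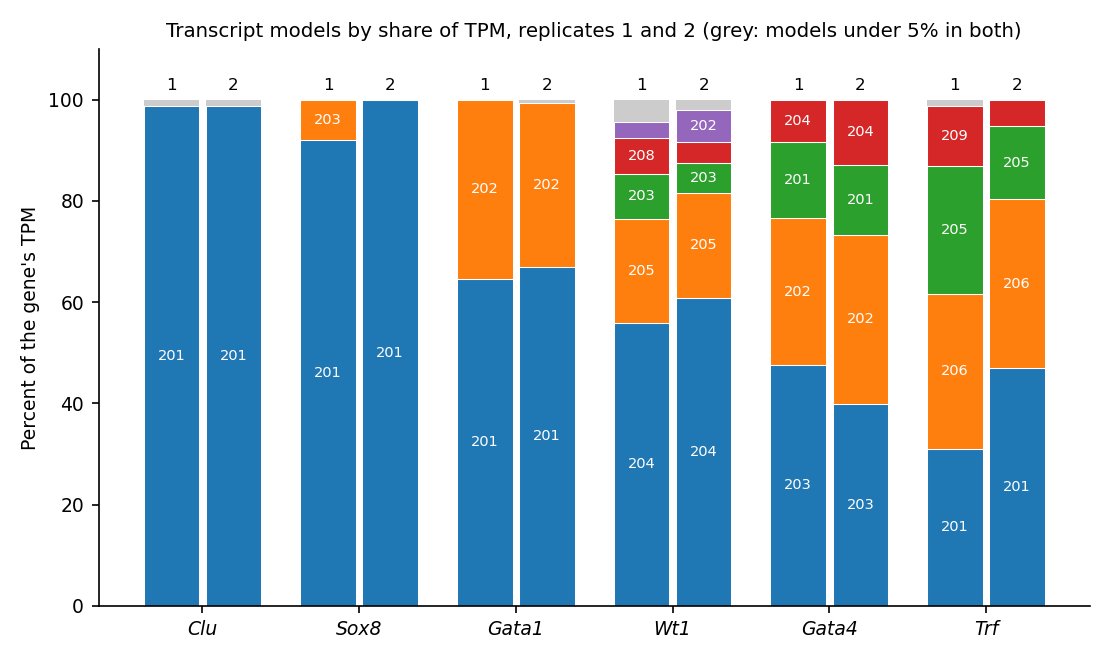
Share of TPM held by each transcript model, in percent, for the 6 genes with several listed transcripts, in replicates 1 and 2 (left and right bar of each pair); numbers are the model suffixes and grey sums the models under 5% in both. Clu and Sox8 are each nearly 1 model, while Wt1, Gata4 and Trf are split among 4 or 5.

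Over all 40 transcripts, 20 held at least 5% of their gene's TPM in either library, and 6 of those 20 were incomplete models. Among 9553 protein-coding genes with several transcripts and a TPM of at least 1, the median share of the leading transcript was 67.9%. Of the 6 genes here with several transcripts, 2, Clu and Sox8, were above that median. Gata1 at 65.7% ± 1.65, Wt1 at 58.4% ± 3.47, Gata4 at 43.7% ± 5.48 and Trf at 38.9% ± 11.3 (SD, n = 2) were below it. Protein-coding models held 91.8% and 94.6% of Wt1 TPM and all of Gata4 and Gata1 TPM, beside a median of 92.3% over the same 9553 genes.

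**Figure D4:**
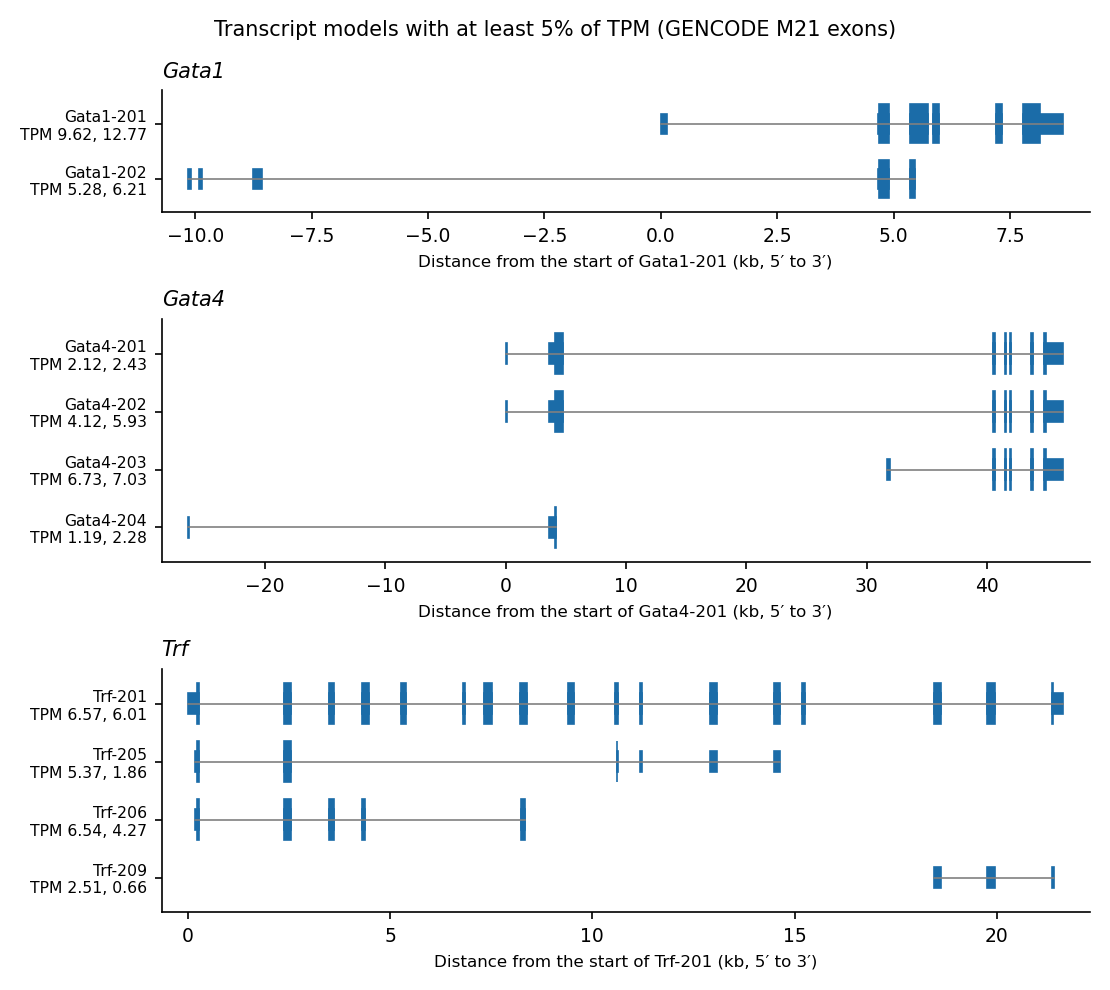
Exon maps of the Gata1, Gata4 and Trf models with at least 5% of the gene's TPM in either library, drawn to scale against the distance in kb from the start of the 201 model (tall boxes coding, low boxes not coding), with the TPM in replicates 1 and 2. Gata1-202 and Gata4-204 begin upstream of the 201 model, Gata4-203 begins inside the gene, and the short Trf models cover only part of Trf-201.

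The 2 libraries were then compared gene by gene, with counts scaled by TMM, a factor that aligns the bulk of genes. With 1 library on each side, a difference has no replicate check. Of the 8 genes, 7 were higher in replicate 2, a direction taken by 51.7% of the 15533 detected genes. The log2 ratio of replicate 2 over replicate 1 was 0.37 for Gata1 (95% interval 0.23 to 0.51), 0.35 for Sox8 (0.20 to 0.50), 0.34 for Wt1 (0.25 to 0.43) and 0.33 for Clu (0.32 to 0.35). It was 0.27 for Gata4 (0.17 to 0.37), 0.25 for Dhh (0.13 to 0.37) and 0.20 for Sox9 (0.06 to 0.34). All 7 intervals lay above 0 and each overlapped the others. None of the 8 genes was past 1.5-fold by counts, which 3.35% of all those genes were in the higher direction and 3.68% in the lower. By TPM, Trf was past it, at 1.66-fold lower.

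Read against the spread of all genes, these differences were moderate. The median over the 8 genes was 0.30 and that over all 15533 genes 0.01, with 5% of genes below -0.50 and 5% above 0.51. The 7 genes stood between the 76.3 and 89.4 percentiles of all genes, and Trf stood at the 8.97 percentile. The coefficient of variation between the libraries beyond counting error, over 19534 genes, was 0.184. This is the value that edgeR calls biological. Since both libraries carry the same donor identifier, it cannot be read as variation between animals.

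A list of 25 other Sertoli genes gave the nearest comparison. Of these, 20 were detected and 17 of the 20 were higher in replicate 2, with a median log2 ratio of 0.36. The highest were Ptgds, a prostaglandin synthase, at 329 and 270.4, Cst9, a cystatin, at 156.5 and 296, and Inha, the inhibin alpha chain, at 142 and 181.5. Clu was above each of them in both libraries. The 6 past 1.5-fold, named after their values were seen, were Cst9, Rhox8, Ctsl, Cst12, Gja1 and Cldn11, with log2 ratios of 0.89, 0.76, 0.71, 0.70, 0.69 and 0.63. All 6 were higher in replicate 2 and none of the 20 was lower by that fold. Among the members of this list under a TPM of 1, Gdnf, a niche factor for spermatogonia, was at 0.54 and 0.42, Wnt4 at 0.65 and 0.04 and Fgf9, the lowest, at 0.02 and 0.09.

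Marker lists of other cell types did not all share this direction. Of 8 Leydig markers, 6 were higher in replicate 2, with a median log2 ratio of 0.21, and of 8 germ cell markers 7 were, with a median of 0.28. The median was -0.14 over 5 detected endothelial markers, whose sum was 64.9 and 50.2, and -0.18 over 7 detected macrophage markers, whose sum was 55.3 and 50.9. It was -0.88 over the 10 peritubular and stromal markers. The part of these cells in the values of the 8 genes was not tested.

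**Figure D5:**
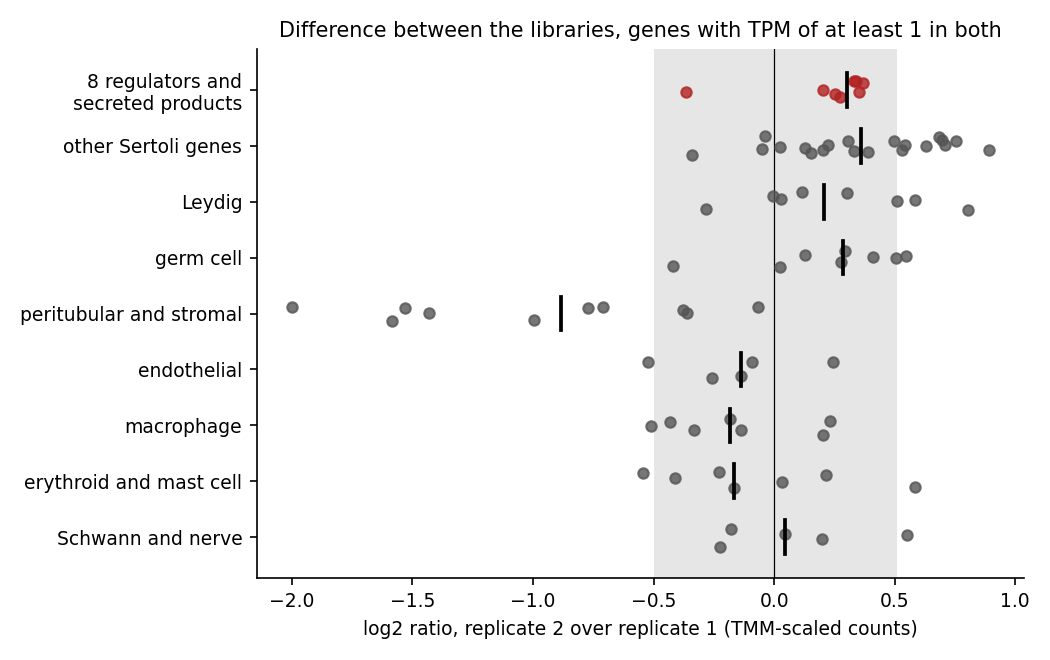
Log2 ratio of replicate 2 over replicate 1 (TMM-scaled counts) for the 8 genes (red) and for marker lists (grey), each point 1 detected gene; black bars are list medians and the grey band spans the 5th to the 95th percentile of all 15533 genes. Of the 8 genes 7 stand to the right of 0 and Trf to the left, with all 8 inside the band.

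For each of the 8 genes, the gene nearest in level was taken from the other lists, by the distance in log2(TPM + 1) over the 2 libraries. Wt1 was nearest to Slc11a2 (distance 0.059, TPM 26.1 and 33.3) and Dhh to Sycp3 (0.116, TPM 11.1 and 14.9). Sox8 was nearest to Wtap (0.149), Gata4 to Star (0.195), Sox9 to Sox13 (0.200) and Gata1 to Hsd17b3 (0.227). Trf was nearest to C1qb at a distance of 0.389, and Clu to Ldhc at 1.56, so that no listed gene was close to Clu. With 2 libraries this measures likeness of level alone.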

How the data were processed

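Gene and transcript tables on the mm10 assembly (GRCm38) with annotation M4 were used for both libraries. Per the file headers, the authors deposited expected counts (estimated reads per gene or transcript, not normalised), TPM and FPKM (per 1e6), posterior means of both, and each transcript's percent share of its gene's TPM. Bounds on TPM and the SD of counts were deposited too and are treated as scores of the authors. Aligner and quantifier: not given in the sources used here. The contigs and splice junctions on mm9 were not used here.

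Symbols, positions and exons came from GENCODE M21 by unversioned identifier. Of the 40 transcripts, 38 had the same length in both annotations. Genes were called detected at TPM 1 or more in each library. Counts of 10 or more in both libraries set TMM factors (edgeR 4.0.16, R 4.3.3; DESeq2 1.42.0 as an alternative). Log2 ratios have 95% binomial (Clopper-Pearson) intervals for counting error only, computed with scipy 1.17.1. Expected counts were rounded for edgeR. The ratio script was tested on simulated counts. No test was made, since there is 1 group.

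The genes named are the 8 genes; from each list the 3 highest, the lowest and up to 3 under TPM 1; transcripts with at least 5% of a gene's TPM; genes with overlapping exons; and the listed gene nearest in log2(TPM + 1). Others are said to be named after their values were seen, except Sox10, Alas2 and Kit, which were named outside this rule without that mark. Some genes that this rule names are not reported here. The 8 genes and the lists were chosen with earlier results of these data known. Alternatives were posterior means, other scalings and thresholds, and leaving out each library.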

Additional observations from a re-analysis of the deposited data

How the results depend on the processing

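Of 146 alternative values for 29 results, 126 stayed within 1 SD, the counting interval or 1.5-fold of the reported value. For levels and shares, leaving out 1 library cannot move a mean with n = 2 past 1 SD. Summed transcript TPM equals gene TPM up to rounding. Sox9 and Dhh have 1 listed transcript each, so their transcript shares could not move. All these alternatives were thus fixed in advance, and their place among the 126 says nothing about stability. All 8 genes stayed detected by posterior mean TPM and FPKM, and 7 were higher in replicate 2 under all 6 scalings. Leaving out a library or lowering the TPM limit to 0.5 could not lose a gene, since detection already asked for a TPM of 1 in each library. At a TPM limit of 5, 7 of the 8 were detected. Rescaling TPM to nuclear protein-coding genes raised Clu to 1610, Wt1 to 36.2, Gata1 to 20.1, Gata4 to 18.9, Dhh to 14.8, Sox8 to 7.71 and Sox9 to 6.30 by construction, since the divisor is smaller. From TPM with a pseudocount of 0.1 or 1, the log2 ratio was 0.35 for Clu in both cases, and -0.73 or -0.69 for Trf, so that 1 gene, Trf, was past 1.5-fold under each pseudocount. Summing Trf with Gm20425, an alternative chosen after seeing the data, gave -0.033. As shares of expected counts, leading transcripts held 44.5% for Wt1, 87.4% for Gata1, 99.4% for Clu and 79.2% for Trf, and the Wt1 short donor 53.5% and 51-base exon 45.9% (both also chosen after seeing the data), since counts are not divided by length. Without 1 library, mean TPM ranged from 12.8 to 21.2 for Trf and from 1193 to 1524 for Clu. No paired analysis was possible because there is 1 group. Models with under 100 counts, such as those of Trf and Gata4-204, limit the transcript shares.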
